A study of Mus musculus with 11 samples.

Results

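Mammary tumour cells that remained after their oncogene was switched off were set against the same kind of cells from growing tumours, both before treatment and after relapse. A gene counted as separated when its 3 residual values all lay above, or all lay below, every one of the 8 values from primary and recurrent tumours. Of 23835 genes tested, 2435 were separated (10.2%), of which 980 were higher in the residual cells (4.11%) and 1455 were lower (6.1%), and 21400 were not separated. Those counts are a description, because the measured values chose the genes, and they came from few residual arrays. Without residual replicate 1, 2 or 3 the same rule took 3804, 3785 and 3765 genes. In limma, a linear model with moderated tests across all genes, 2720 genes passed at an adjusted p under 0.05 for the residual mean against the average of both growing stages (11.4%), 1077 higher (4.52%) and 1643 lower (6.89%). This contrast used the same values as the rule. It called 709 of the 980 genes separated higher and 1199 of the 1455 separated lower. Calls in the lists below are therefore no separate support for separation.

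All 3 groups held cells of the genotype MMTV-rtTA;TetO-Wnt1, in which a mammary promoter drives the transactivator rtTA and doxycycline then turns on the ligand Wnt1. The cells also carried H2B-eGFP, a histone fused to a green fluorescent protein, and had been grown orthotopically in female nu/nu mice on doxycycline. These hosts lack a thymus and so lack most T cells, while their other immune cells and stroma are present. The 4 primary tumour arrays came from untreated mice, the 3 residual lesion arrays from mice 28 days after doxycycline withdrawal, and the 4 recurrent tumour arrays from mice under the same Wnt1 inhibition whose tumours had grown back. Cells were isolated as positive for the fluorescent protein. Whether the replicates of a stage were separate animals is not stated in the labels. P-values therefore measure only how much these samples spread, and that spread may be technical.

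A cell that stops dividing leaves the cycle before DNA synthesis. The genes for replication and mitosis are then silenced together by repressor complexes of E2F proteins, pocket proteins and the MuvB core, which act at E2F sites and at the cell cycle genes homology region, or CHR. Growth factor signals through MAP kinases and cyclin D1 bring such cells back into the cycle. Minimal residual disease is the name for tumour cells that outlast treatment, dividing or not, and from which relapse can start.

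Every array gave 1 log2 signal per gene, with array medians of 4.29 to 4.41. The interquartile range was narrower on the residual arrays (3.52 to 3.57) than on the primary (3.73 to 3.81) and recurrent arrays (3.67 to 3.74). Olfactory receptor genes, which mammary cells are not known to use, served as a measure of background, and their 95th percentile was 4.35 to 4.39 on residual, 4.00 to 4.03 on primary and 4.06 to 4.12 on recurrent arrays. Of 1083 such receptors, 41 were separated higher (3.79%) and 3 lower (0.277%), and with arrays scaled to 1 median and interquartile range these counts were 22 and 25. The share of receptors separated higher was close to that of all genes. Among genes separated higher, 657 of 980 (67%) read above the background percentile on every residual array, and 1384 of 1455 genes separated lower (95.1%) did so on every growing array. Wnt1 read 2.89 to 3.26 on all 11 arrays, within background, and does not check the labels.

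The wide separations lay mostly on the lower side. The gap, the log2 distance between the nearest residual and the nearest growing array, had a median of 0.21 among genes separated lower and 0.15 among genes separated higher. A gap of at least 1 was found for 134 lower and 51 higher genes, and a gap of at least 3 for 9 lower genes and 1 higher gene. Of the 134 lower genes, 64 (47.8%) belonged to 4 lists of mitosis, DNA replication, homologous recombination repair and replication-dependent histones, whose 158 measured members make up 0.663% of the genes tested. Of those 158 members, 116 (73.4%) were separated lower and 0 higher. None of the 51 higher genes belonged to these lists.

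**Figure D1:**
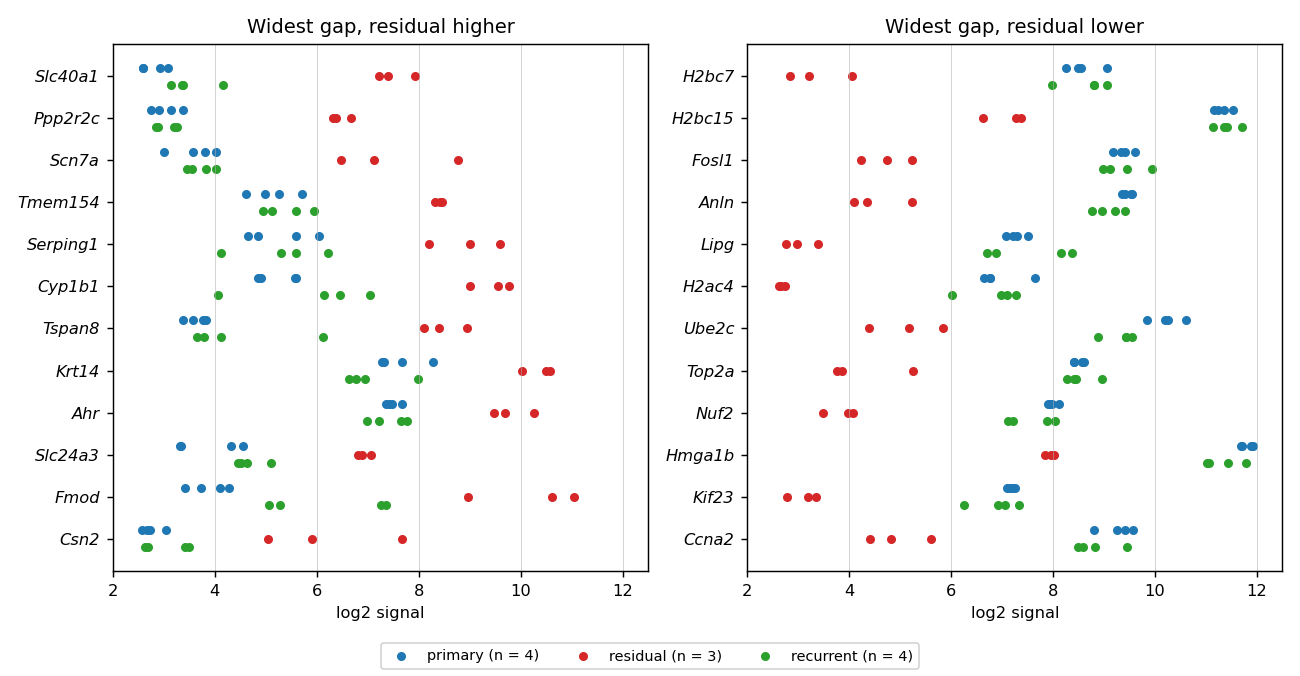
Log2 signal of the 12 genes separated higher and the 12 separated lower with the widest gaps, 1 dot per array, for 4 primary, 3 residual and 4 recurrent arrays. H2bc7 lay at 2.84 to 4.05 on residual arrays against 7.99 to 9.06 on growing arrays, and Slc40a1 at 7.21 to 7.92 against 2.58 to 4.16.

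The widest gaps of all belonged to histone genes of the replication-dependent class, which supply the nucleosomes for newly made DNA. H2bc7, a gene for core histone H2B, read 8.55, 9.06, 8.26 and 8.48 on the primary arrays, 3.20, 4.05 and 2.84 on the residual arrays and 8.81, 7.99, 9.05 and 8.81 on the recurrent arrays. H2bc15, another H2B gene, read 11.23, 11.52, 11.16 and 11.34 on primary, 6.64, 7.28 and 7.38 on residual and 11.71, 11.15, 11.35 and 11.42 on recurrent arrays. The residual arrays of both genes lay far below all growing arrays, with gaps of 3.94 and 3.77, and primary and recurrent arrays overlapped. The residual mean differed from the mean of the growing stages by -5.26 ± 0.28 (SE) for H2bc7 and -4.26 ± 0.17 (SE) for H2bc15 on the log2 scale. H2ac4, an H2A gene, had a gap of 3.28. Its residual values of 2.63, 2.74 and 2.66 lay within background, as did those of H2bc7. Of 19 histone genes measured, 10 were separated lower and 0 higher, with a median difference of -0.95 against 0.03 over all genes. H2bc4 was an exception, at 8.59 to 9.35 on residual and 7.96 to 10.57 on growing arrays. Histone genes have near-identical copies, so single members are uncertain. The cells also carried H2B-eGFP, and whether H2B probe sets read it was not tested. Most of their transcripts lack a poly(A) tail, and the sources used here do not say how the labelling reaction was primed.

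Of 56 genes of G2 phase and mitosis, 53 were separated lower and 0 higher, and the median difference was -2.70. Cdc25b, Bub3 and Bora were measured but not separated. Ube2c, which supplies ubiquitin to the complex that starts anaphase, read 10.26, 10.61, 10.21 and 9.84 on primary, 5.17, 5.83 and 4.40 on residual and 9.43, 9.42, 8.89 and 9.55 on recurrent arrays. Top2a, the topoisomerase that untangles replicated chromosomes, read 8.60, 8.42, 8.56 and 8.41, then 3.86, 5.24 and 3.76, then 8.97, 8.41, 8.28 and 8.46 in the same order of stages. In both genes the 8 growing arrays lay above every residual array, by 3.06 and 3.03. The differences were -4.64 ± 0.27 (SE) and -4.22 ± 0.27 (SE). Anln, a scaffold of the cleavage furrow, had a gap of 3.52, Nuf2, a kinetochore protein, 3.03, Kif23, a motor of the central spindle, 2.90, and Ccna2, cyclin A2, 2.89. Ccnb2, a mitotic cyclin, read 4.23 to 4.96 on residual against 7.77 to 9.17 on growing arrays. In bulk samples such as these, fewer dividing cells and less of these RNAs per cell cannot be told apart.

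The promoters of separated genes were searched for letters that the rule did not use. The 250 bases before the annotated start are shown for 4 genes separated lower by the widest gaps among those that hold both motifs named next. Capitals mark the CHR letters TTTGAA and the NF-Y box letters CCAAT, each on either strand, so that TTCAAA and ATTGG are marked as well. Overlapping matches are joined. The sequences are from RefSeq on build GRCm38.p6, written 5′ to 3′ on the strand of the gene.
H2bc7, chr13:23574208-23574457, minus strand: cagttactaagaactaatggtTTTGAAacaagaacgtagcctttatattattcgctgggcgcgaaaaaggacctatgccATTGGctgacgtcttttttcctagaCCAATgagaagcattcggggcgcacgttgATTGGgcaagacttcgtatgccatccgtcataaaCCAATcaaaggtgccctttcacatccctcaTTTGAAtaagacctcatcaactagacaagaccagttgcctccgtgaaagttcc
H2bc15, chr13:21753826-21754075, plus strand: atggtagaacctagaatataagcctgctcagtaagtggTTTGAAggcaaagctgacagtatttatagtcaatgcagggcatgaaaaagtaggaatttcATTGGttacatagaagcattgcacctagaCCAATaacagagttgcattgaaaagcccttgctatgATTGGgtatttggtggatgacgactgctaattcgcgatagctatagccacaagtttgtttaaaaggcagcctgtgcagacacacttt
Ube2c, chr2:164769679-164769928, plus strand: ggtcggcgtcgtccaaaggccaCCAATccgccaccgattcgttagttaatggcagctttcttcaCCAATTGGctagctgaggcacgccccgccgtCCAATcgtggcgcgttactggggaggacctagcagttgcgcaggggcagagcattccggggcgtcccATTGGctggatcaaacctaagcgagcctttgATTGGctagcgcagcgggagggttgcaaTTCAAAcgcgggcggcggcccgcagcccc
Top2a, chr11:99024190-99024439, minus strand: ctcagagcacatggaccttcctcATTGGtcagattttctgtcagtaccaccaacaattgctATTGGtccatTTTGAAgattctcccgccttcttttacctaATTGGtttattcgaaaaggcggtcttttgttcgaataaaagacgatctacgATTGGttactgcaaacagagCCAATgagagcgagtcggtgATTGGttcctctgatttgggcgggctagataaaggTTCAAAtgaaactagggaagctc

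The marked letters lie at different distances from the start. In Ube2c the CHR letters begin 29 bases before it, with CCAAT letters 57, 88, 155, 183, 186 and 228 bases before it. In Top2a CHR letters begin 23 and 179 bases before the start, with CCAAT letters 58, 78, 98, 149, 189 and 227 bases before it. In H2bc7 CHR matches begin 53 and 229 bases before the start, with CCAAT letters at 83, 117, 146 and 171. In H2bc15 the CHR match begins 212 bases before the start, with CCAAT letters at 87, 123 and 152. Over the window from 250 bases before to 50 after the start, 17724 tested genes had a promoter in the table. TTTGAA was present in 15.8% of them, CCAAT in 38.7% and both in 6.47%. Among the 108 promoters of genes separated lower by at least 1, TTTGAA was present in 46.3% (exact 95% interval 36.7 to 56.2), CCAAT in 68.5% (58.9 to 77.1) and both in 39.8% (30.5 to 49.7). Among all 1154 promoters of genes separated lower the shares were 15.3%, 44.2% and 8.49%. In the last 150 bases of the window both motifs were present in 1.73% of all promoters, 4.51% of those separated lower and 29.6% of those separated lower by at least 1. For genes separated higher by at least 1, with 36 promoters, the share with both was 2.78%. The intervals cover counting error over genes, which are not independent of each other. A match is a description of letters and no evidence of binding.

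**Figure D2:**
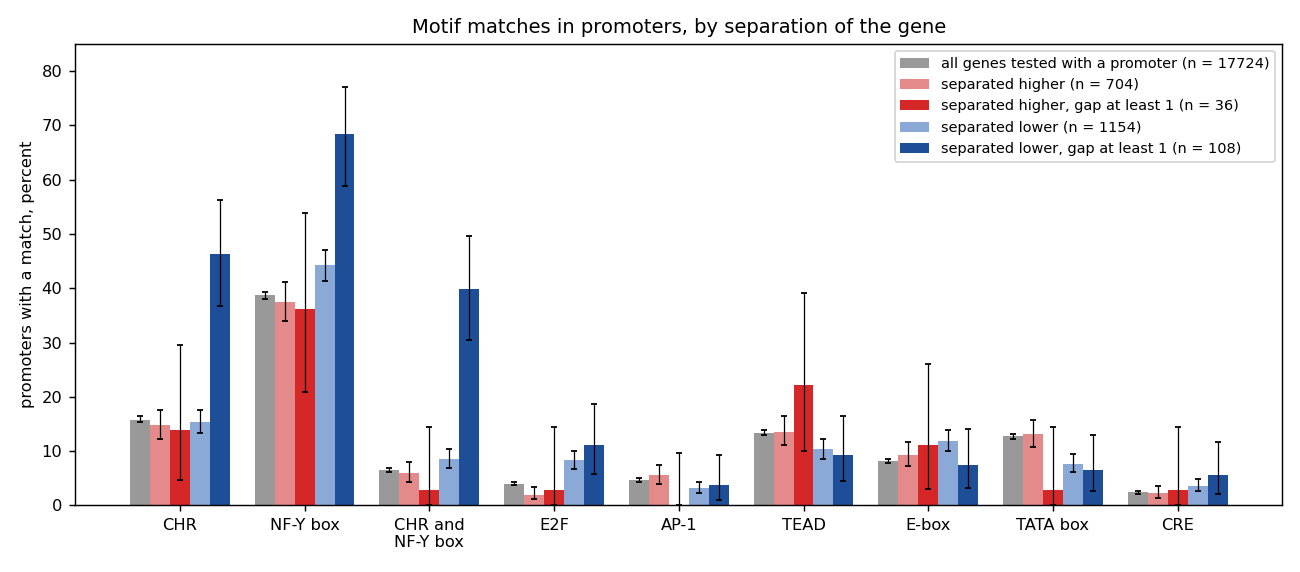
Percent of promoters that hold each motif on either strand, for all tested genes, genes separated higher or lower, and those with a gap of at least 1, with exact 95% intervals. CHR and NF-Y box letters together were in 39.8% of the promoters of genes separated lower by at least 1 and in 6.47% of all promoters.

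The letters were also counted by phase of the cycle. As 53 of 56 mitosis genes and 40 of 52 S phase genes were separated lower, these shares largely describe the lists. Of 44 promoters of mitosis genes separated lower, 77.3% held TTTGAA, 63.6% held it with CCAAT and 4.55% held an E2F motif (TTTGGCGC or TTTCGCGC or TTCCCGCC, either strand). Of 30 promoters of S phase genes separated lower, 20% held TTTGAA, 16.7% held it with CCAAT and 46.7% held an E2F motif, which 3.96% of all promoters held. The AP-1 letters TGAGTCA were in 4.69% of all promoters, 3.21% of those separated lower and 5.54% of those separated higher.

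DNA replication genes followed mitosis at a smaller size. Of 52 genes of S phase, 40 were separated lower and 0 higher, with a median difference of -1.17. Mcm6, a subunit of the replicative helicase, read 8.09, 7.96, 8.17 and 7.83 on primary, 4.33, 5.35 and 4.37 on residual and 8.20, 7.96, 8.42 and 8.21 on recurrent arrays. Uhrf1, which keeps DNA methylation through replication, had a gap of 2.17, and Rrm2, the small subunit of ribonucleotide reductase, a gap of 1.83. The large subunit Rrm1 read 7.88 to 8.002, 7.40 to 8.004 and 7.93 to 8.32 on primary, residual and recurrent arrays, and Tyms, thymidylate synthase, 8.37 to 8.79, 8.64 to 8.89 and 8.24 to 8.56. Neither of the last pair was separated. Of 31 genes of homologous recombination and crosslink repair, 13 were separated lower and 0 higher, with a median difference of -0.66. Pbk, a mitotic kinase placed in that list, had a gap of 2.55, Exo1, an exonuclease that resects DNA ends, 1.38, and Brip1, a helicase that binds BRCA1, 1.35. Hmga1b, listed for a chromatin protein with a near-identical copy and so uncertain, read 7.84 to 8.03 on residual against 11.02 to 11.92 on growing arrays.

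Inhibitors of the cycle did not move as a group. Of 24 inhibitors and pocket proteins, 2 were separated higher and 4 lower, and the median difference was 0.00. Cdkn1a, the inhibitor p21, read 11.32, 11.05, 11.47 and 11.37 on primary, 9.23, 8.89 and 9.44 on residual and 10.81, 11.15, 10.48 and 10.84 on recurrent arrays. All 3 residual values lay below the growing arrays, by a gap of 1.04. Cdkn2c, an inhibitor of CDK4 and CDK6, and Rbl1, the pocket protein p107, were also lower, with gaps of 0.32 and 0.64. E2f4, an E2F of the repressor class, was lower with a gap of 0.02. Cables1, which links cyclin-dependent kinases to other kinases, read 4.90, 5.12 and 5.70 on residual against 2.96 to 4.18 on growing arrays. Btg2, an antiproliferative gene induced by p53, read 11.74, 11.65 and 11.83 on residual against 10.44 to 11.50 on growing arrays.

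Ccnd1, cyclin D1, which couples growth signals to the cycle, was among the genes separated lower. It read 10.20, 10.23, 10.30 and 10.27 on primary, 5.81, 7.42 and 6.57 on residual and 10.24, 9.71, 9.58 and 9.60 on recurrent arrays, a difference of -3.42 ± 0.27 (SE). The lowest growing array lay 2.16 above the highest residual array. The difference of recurrent from primary cells was -0.47 ± 0.28 (SE, limma adjusted p = 0.522).

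Many genes that report and feed MAP kinase signalling were lower with cyclin D1, while immediate early genes as a list were not. Of 32 feedback genes and EGF family ligands, 13 were separated lower and 0 higher, the median difference was -0.80, and limma called 17 lower and 2 higher. Fosl1, the AP-1 factor Fra-1, which is induced by ERK, read 9.41, 9.34, 9.18 and 9.60 on primary, 4.74, 5.23 and 4.24 on residual and 9.95, 9.46, 9.12 and 8.97 on recurrent arrays. Its gap of 3.74 followed those of the H2B genes, and recurrent cells differed from primary cells by -0.01 ± 0.24 (SE, limma adjusted p = 0.996). Ereg, an EGF receptor ligand, read 10.73, 9.24, 10.43 and 10.70, then 7.30, 6.33 and 5.83, then 9.90, 9.51, 8.81 and 8.48. Areg, another ligand of that receptor, had a gap of 0.78, and its recurrent arrays lay below the primary arrays, by -1.33 ± 0.26 (SE, limma adjusted p = 0.0257). Plaur, the urokinase receptor, had a gap of 1.66, and Etv5, an ETS factor downstream of ERK, 0.39. The receptor itself went the other way. Egfr read 6.37, 5.56, 6.44 and 6.03 on primary, 8.14, 8.44 and 8.39 on residual and 7.65, 7.47, 8.13 and 8.44 on recurrent arrays and was not separated, since residual and recurrent arrays overlapped. Against both stages Egfr differed by 1.31 ± 0.23 (SE, limma adjusted p = 0.00351), and Spry1, a feedback inhibitor, by 1.55 ± 0.20 (SE, limma adjusted p = 0.000527). Both calls were lost with the growing arrays pooled as 1 group (adjusted p = 0.172 for each, limma). Among 23 immediate early genes, 1 was separated higher, Jund, with a gap of 0.01, and 0 lower. Limma called 4 of the 23 higher and 1 lower. The mean of that list was 8.60 to 9.12 on primary, 9.18 to 9.43 on residual and 9.18 to 9.67 on recurrent arrays, so residual and recurrent arrays overlapped.

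**Figure D3:**
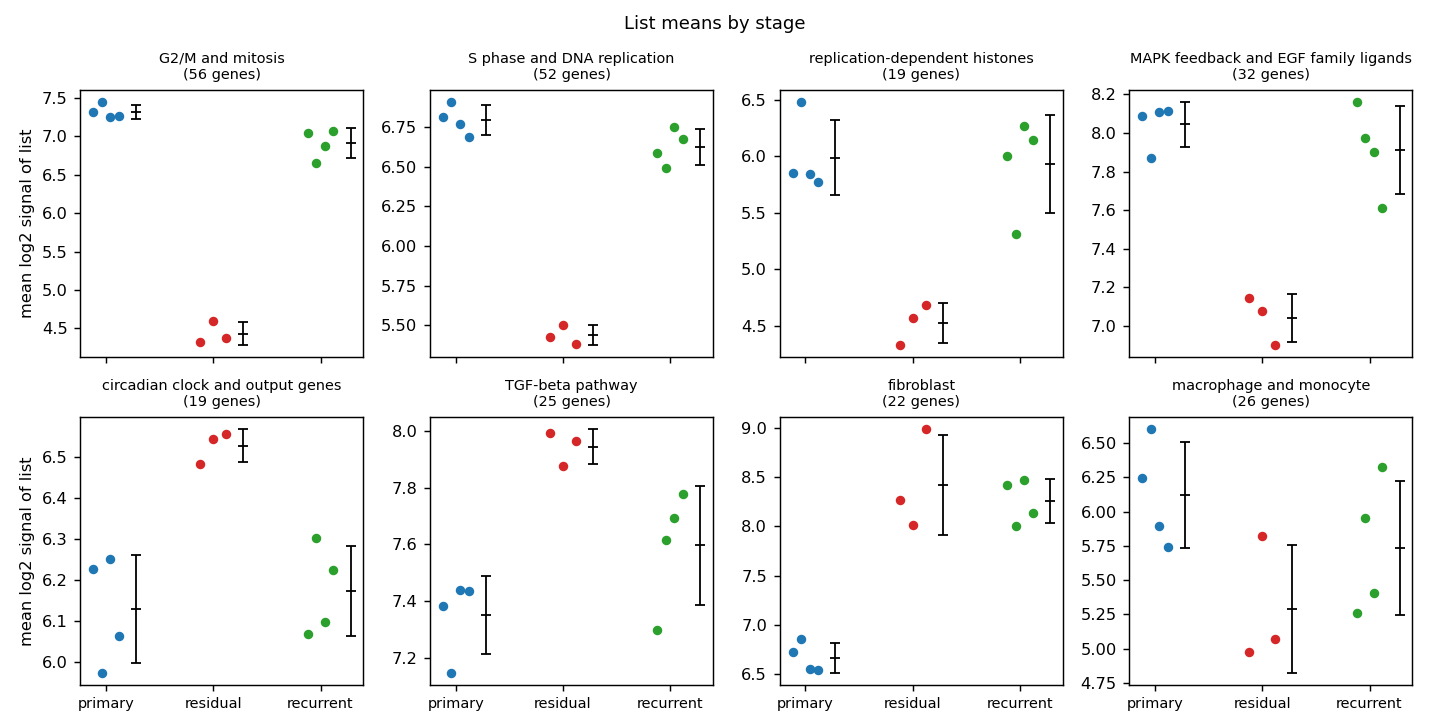
Mean log2 signal of 8 gene lists on each array, with the mean ± SD of each stage (n = 4, 3 and 4). The mitosis list lay at 4.32 to 4.60 on residual arrays, 7.25 to 7.45 on primary and 6.65 to 7.07 on recurrent arrays, while the fibroblast list lay at 8.01 to 8.98, 6.54 to 6.85 and 8.0 to 8.47.

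Genes for making ribosomes were lower in residual cells. Of 41 genes of ribosome biogenesis and MYC targets, 25 were separated lower and 0 higher, with a median difference of -0.72. Nop58, a core protein of box C/D particles, read 9.64, 9.74, 9.62 and 9.66 on primary, 8.25, 8.55 and 8.48 on residual and 9.68, 9.51, 9.55 and 9.41 on recurrent arrays. Dkc1, the pseudouridine synthase dyskerin, had a gap of 0.91, and Nop56, a partner of Nop58, 0.34. In each of the 3 genes all residual arrays lay below all growing arrays. Of 39 cytosolic ribosomal proteins, 16 were separated lower and 0 higher, and limma called 21 lower, or 11 without residual replicate 2. Rpl14 and Rps24 had gaps of 0.31 and 0.07. With arrays scaled to 1 interquartile range, 10 ribosomal proteins were separated lower. Genes of this family have many processed copies in the genome, so single members are uncertain.

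Glycolysis was lower in part. Of 18 enzymes, 6 were separated lower and 0 higher, with a median difference of -0.76. Hk2, hexokinase 2, which commits glucose to the pathway, read 7.72, 6.81, 7.87 and 7.59 on primary, 5.45, 5.60 and 5.51 on residual and 6.35, 7.09, 6.81 and 6.63 on recurrent arrays. Pfkl, a phosphofructokinase, had a gap of 0.54, Tpi1, triosephosphate isomerase, 0.45, and Ldha, lactate dehydrogenase A, 0.38. Of 25 genes of cholesterol synthesis and uptake, 5 were separated lower and 2 higher. Sqle, squalene epoxidase, had a gap of 0.41 on the lower side. Of 55 genes of oxidative phosphorylation, 13 were separated lower and 0 higher, with a median difference of -0.35. The count separated lower was 2 with arrays scaled to 1 interquartile range, where 2 were separated higher. It was 5 when quantile-normalized again and 19 with arrays centred on their medians, so it depended on the scaling. Uqcrfs1, the iron-sulphur protein of complex III, had a gap of 0.49.

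Among genes separated higher, the widest gap was that of Slc40a1, ferroportin, the exporter of iron from cells. It read 2.58, 2.59, 2.91 and 3.08 on primary, 7.21, 7.41 and 7.92 on residual and 3.14, 3.35, 3.37 and 4.16 on recurrent arrays. All residual arrays lay above all growing arrays, and all growing arrays except recurrent replicate 4 lay within background, so the difference of 4.36 ± 0.22 (SE) may be understated. Ppp2r2c, a regulatory subunit of protein phosphatase 2A, read 3.37, 2.75, 3.14 and 2.89, then 6.68, 6.38 and 6.33, then 2.84, 3.19, 3.26 and 2.88. Its growing arrays were at background in both stages. Scn7a, an atypical sodium channel, and Tmem154, a membrane protein, had gaps of 2.46 and 2.37. Slc24a3, which exchanges sodium for calcium and potassium, had a gap of 1.70.

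Ahr, the aryl hydrocarbon receptor, and Cyp1b1, an oxidase that this receptor induces, were both among the 12 widest gaps. Ahr read 7.67, 7.48, 7.35 and 7.41 on primary, 9.69, 10.26 and 9.48 on residual and 7.64, 6.99, 7.76 and 7.22 on recurrent arrays. Cyp1b1 read 5.60, 4.90, 4.85 and 5.58 on primary, 9.55, 9.01 and 9.78 on residual and 6.45, 7.04, 6.15 and 4.06 on recurrent arrays. Both were far above background on all residual arrays, with differences of 2.37 ± 0.20 (SE) and 3.87 ± 0.49 (SE). Of 47 enzymes and pumps for aldehydes, glutathione and xenobiotics, 4 were separated higher and 0 lower. Aldh1a3, an enzyme of retinoic acid synthesis, had a gap of 1.37, and Fmo1, a flavin monooxygenase, 0.41.

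Single epithelial genes were separated in both directions, beside 4.11% higher and 6.1% lower over all genes. Krt14, the keratin of basal mammary cells, read 7.32, 7.28, 7.67 and 8.27 on primary, 10.49, 10.57 and 10.02 on residual and 6.95, 7.98, 6.63 and 6.78 on recurrent arrays, a difference of 3.002 ± 0.29 (SE) with no overlap. Lamb3, a laminin chain of epithelial basement membranes, had a gap of 1.03 on the higher side, while Itga6, an integrin of basal cells, had one of 0.52 on the lower side. Of 23 basal and myoepithelial markers, 2 were separated higher and 1 lower, and the basal marker Krt5 read 3.71 to 3.97, 4.02 to 4.16 and 3.97 to 4.22 on primary, residual and recurrent arrays, near background. Tspan8, a tetraspanin of luminal cells, read 8.94, 8.40 and 8.09 on residual against 3.37 to 6.13 on growing arrays. Epcam, an epithelial adhesion molecule, read 3.47, 6.29 and 4.10 on residual against 3.14 to 3.45 on growing arrays, so that residual replicate 2 alone was above background, with a gap of 0.03.

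The keratins of luminal cells went the other way. Krt18 read 10.13, 10.56, 10.50 and 10.48 on primary, 8.37, 8.83 and 7.08 on residual and 9.59, 10.24, 10.59 and 8.95 on recurrent arrays, and its partner Krt8 read 8.46, 8.59 and 8.18 on residual against 9.38 to 10.16 on growing arrays. Vim, the mesenchymal filament vimentin, was high on every array and lower on the residual ones, at 12.22 to 12.40 against 12.68 to 12.93. Of 27 luminal markers, 7 were separated higher and 3 lower, and 16 of the 27 were above background. Limma called 6 of them higher, or 3 without residual replicate 2. Csn2, beta-casein, read 2.67, 2.73, 2.58 and 3.05 on primary, 5.04, 7.68 and 5.91 on residual and 2.69, 3.49, 2.62 and 3.41 on recurrent arrays, so that the growing arrays were at background. Residual replicate 2 was the highest for Csn2, for Csn1s2a (3.16, 5.86 and 4.69 on residual arrays) and for Csn1s1 (3.34, 5.34 and 3.05), all caseins. Of 15 milk protein genes, 4 were separated higher and 0 lower, and 5 of the 15 were above background.

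The TGF-beta pathway held several separated members, all on the higher side. Of 25 members, 6 were separated higher and 0 lower, and limma called 7 higher and 0 lower, with a median difference of 0.28. Tgfb1, a ligand of the pathway, read 9.20, 9.02, 9.14 and 9.21 on primary, 10.54, 10.62 and 10.60 on residual and 8.50, 9.49, 8.97 and 9.47 on recurrent arrays, a difference of 1.46 ± 0.19 (SE). The residual arrays lay close together and above all others. Tgfb3, a second ligand, had a gap of 0.20 and stayed above primary in recurrent cells, by 1.28 ± 0.17 (SE, limma adjusted p = 0.00327). Of the receptors, Tgfbr2 read 9.99, 9.78 and 9.73 on residual against 8.33 to 9.51 on growing arrays, and Acvr1 8.91, 8.67 and 8.94 against 8.11 to 8.46. Fstl3, a secreted inhibitor of activin, had a gap of 0.79. Pmepa1, a target gene that restrains the pathway, read 11.91, 11.99 and 11.81 on residual against 10.02 to 11.25 on growing arrays. Lrrc32, which holds latent TGF-beta on the cell surface, was called and not separated, at 2.23 ± 0.36 (SE, limma adjusted p = 0.00225), and was not called with the growing arrays pooled as 1 group (limma adjusted p = 0.0841).

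In the related BMP pathway, 6 of 30 members were separated higher and 2 lower. Grem1, a secreted BMP antagonist, was the member with the widest gap and lay lower, at 9.07, 8.89, 8.93 and 8.89 on primary, 4.13, 3.58 and 3.43 on residual and 6.46, 6.25, 6.50 and 7.69 on recurrent arrays. The 3 stages did not overlap, and recurrent cells differed from primary cells by -2.22 ± 0.28 (SE, limma adjusted p = 0.00193). The antagonists Chrd and Chrdl1 lay higher, with gaps of 0.87 and 0.58. Among the receptors, Bmpr1a and Bmpr2 lay higher, with gaps of 0.07 and 0.04. Smad6, an inhibitory SMAD, read 6.42, 6.18 and 6.80 on residual against 4.08 to 5.24 on growing arrays. Among 24 Notch genes, 4 were separated higher and 1 lower, and Jag1, a Notch ligand, read 8.59, 8.81 and 9.11 on residual against 4.94 to 7.66 on growing arrays.

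Single members of growth factor systems were separated in both directions, beside 4.11% higher and 6.1% lower over all genes. Igf1, the ligand of the IGF system, read 6.65, 6.25, 6.84 and 6.54 on primary, 10.24, 10.26 and 10.65 on residual and 8.11, 8.60, 8.22 and 9.89 on recurrent arrays. Its residual arrays lay above all others, and its recurrent arrays lay between the other stages, 2.13 ± 0.33 (SE, limma adjusted p = 0.00701) above primary. Igfbp7, a secreted binding protein, and Irs1, an adaptor of the receptor, had gaps of 0.40 and 0.17 on the higher side, while the receptor Igf1r lay lower with a gap of 0.22. In all, 3 of 22 IGF genes were separated higher and 1 lower. Pdgfrb, a PDGF receptor, had a gap of 0.09 and was also higher in recurrent than in primary cells, by 2.29 ± 0.14 (SE, limma adjusted p = 8.81e-06). Pdgfc, a ligand, had a gap of 0.47. Of 26 genes of PDGF, FGF and discoidin receptors and their ligands, 2 were separated higher, these last, and 1 lower. The lower one was Met, the receptor of hepatocyte growth factor, at 9.23, 8.81, 9.31 and 9.30 on primary, 7.76, 8.17 and 7.41 on residual and 9.57, 9.63, 12.44 and 12.46 on recurrent arrays.

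Wnt feedback and target genes, the readout closest to the withdrawn oncogene, were mixed. Of 29 genes, 5 were separated higher and 2 lower, and the median difference was 0.08. Nkd2, which restrains Dishevelled, read 4.09, 3.65, 3.80 and 4.27 on primary, 9.65, 10.14 and 9.95 on residual and 7.42, 8.01, 8.23 and 8.79 on recurrent arrays. Both stages under Wnt1 inhibition were above primary, without overlap, and recurrent cells differed from primary cells by 4.16 ± 0.26 (SE, limma adjusted p = 1.18e-05). Fzd7, a Wnt receptor, had a gap of 1.02, and Ccn5, a matricellular protein of the CCN family, 0.67. Between recurrent and primary cells Ccn5 differed by -0.03 ± 0.25 (SE, limma adjusted p = 0.977). On the lower side stood Ccnd1, given above, and Myc, a growth regulator, with a gap of 0.08. Dkk2, a secreted modulator of Wnt receptors, was outside the list and separated lower. It read 6.85, 7.10, 6.72 and 7.06 on primary, 5.19, 6.05 and 5.50 on residual and 9.36, 8.28, 9.32 and 8.87 on recurrent arrays, so its recurrent arrays lay above the primary ones, by 2.02 ± 0.25 (SE, limma adjusted p = 0.00171).

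Clock genes formed a small group with 1 direction. Of 19 clock and output genes, 6 were separated higher and 0 lower, with a median difference of 0.31. Bhlhe41, a repressor of the clock, read 8.10, 7.87, 8.01 and 7.63 on primary, 9.63, 9.95 and 9.65 on residual and 7.999, 8.56, 8.12 and 7.73 on recurrent arrays. Bhlhe40, its close relative, and Cry2, a core repressor, had gaps of 0.35 and 0.22. Npas2, an activator of the clock, had a gap of 0.35. Arntl, the activator BMAL1, read 7.84, 7.96 and 7.84 on residual against 7.06 to 7.52 on growing arrays, and Tef, an output factor, 5.38, 5.78 and 6.09 against 4.999 to 5.28. The sources used here do not give the hour at which tissue was taken, and its part in these values was not tested.

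A list of genes reported for dormant or quiescent tumour cells held Bhlhe41 too. Of 29 such genes, 6 were separated higher and 1 lower, and limma called 10 higher, or 6 without residual replicate 2 or 3, and 1 lower. Thbs1, thrombospondin 1, a matrix protein of perivascular niches, had a gap of 0.49. The member on the lower side was Nr2f1, a nuclear receptor linked to dormancy, at 7.32, 7.56, 7.53 and 7.71 on primary, 6.72, 6.83 and 6.57 on residual and 7.74, 7.87, 7.90 and 7.44 on recurrent arrays.

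**Figure D4:**
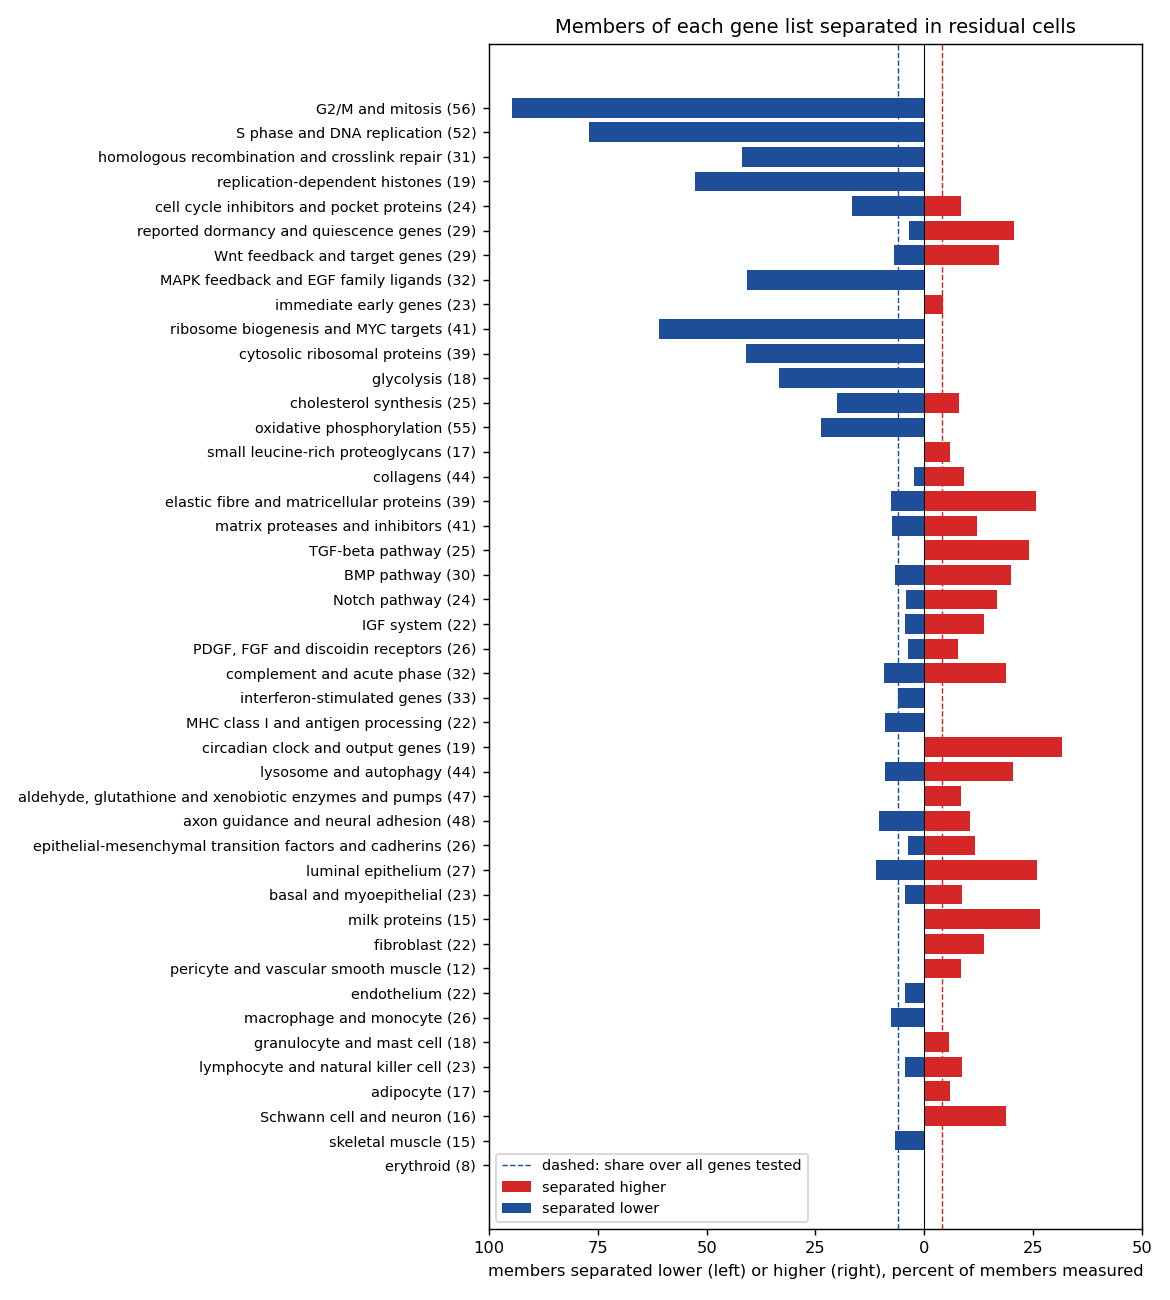
Percent of the measured members of each of 44 gene lists that were separated higher (right) or lower (left) in residual cells, with dashed lines at the shares over all 23835 genes, 4.11% and 6.1%. The mitosis list, with 53 of 56 members separated lower, stands farthest from those lines.

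Matrix genes showed how the rule differs from a high level alone. Of 39 elastic fibre and matricellular genes, 10 were separated higher and 3 lower, and limma called 16 higher and 4 lower, or 10 higher without residual replicate 3. Fbln5, an elastic fibre protein, read 4.83, 5.09, 5.26 and 4.22 on primary, 8.99, 9.70 and 10.10 on residual and 7.18, 8.26, 8.09 and 8.42 on recurrent arrays. The recurrent arrays lay between the other stages and 3.14 ± 0.32 (SE, limma adjusted p = 0.000588) above primary. Comp, a matrix protein of cartilage and tendon, had the same order, with a gap of 0.29 and a recurrent difference of 3.23 ± 0.52 (SE, limma adjusted p = 0.00985). Postn, periostin, was higher than in primary cells and not separated, at 5.91, 6.38, 5.52 and 3.76 on primary, 12.10, 11.93 and 12.52 on residual and 11.29, 10.85, 12.19 and 12.37 on recurrent arrays. Its residual and recurrent arrays overlapped, and recurrent cells lay 6.29 ± 0.51 (SE, limma adjusted p = 0.000127) above primary. Fmod, a small leucine-rich proteoglycan, was the separated member among 17 of that family, at 4.09, 3.73, 3.42 and 4.27 on primary, 8.97, 11.04 and 10.61 on residual and 7.27, 7.35, 5.05 and 5.27 on recurrent arrays. Ogn, of the same family, was not separated and lay at 10.45, 9.76, 8.92 and 9.66 in recurrent cells against 8.36, 8.99 and 10.65 in residual cells.

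Of 44 collagens, 4 were separated higher and 1 lower, beside 4.11% and 6.1% of all genes. Col11a1, a fibrillar collagen, read 6.50, 8.39 and 5.75 on residual against 3.20 to 5.27 on growing arrays, and Col18a1, the source of endostatin, was lower with a gap of 1.16. Col3a1, a main fibrillar collagen, was not separated, at 2.05 ± 0.43 (SE, limma adjusted p = 0.0108), and was higher in recurrent than primary cells by 3.90 ± 0.45 (SE, limma adjusted p = 0.00115). Its residual call was lost without residual replicate 1 (limma adjusted p = 0.0508) or 3 (0.0607) and with the growing arrays pooled (0.322). Of 41 matrix proteases and inhibitors, 5 were separated higher and 3 lower. Timp3, an inhibitor of metalloproteinases, read 9.73, 9.11, 9.76 and 9.37 on primary, 12.32, 12.27 and 12.17 on residual and 11.40, 10.80, 9.74 and 9.30 on recurrent arrays. Mme, neprilysin, was at 10.46 to 10.70 on residual and 10.28 to 10.77 on recurrent arrays against 4.77 to 5.77 on primary arrays, and was not separated. The counts of limma calls in these lists moved with single arrays. The proteoglycans had 7 called higher, or 4 without residual replicate 3, and the collagens 9, or 5 without residual replicate 1 or 3.

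Fibroblast markers moved with these matrix genes. The list itself holds matrix genes such as Col3a1, Lum and Dcn, so this is no separate observation. The part of fibroblasts in the result was not tested. Of 22 markers, 3 were separated higher and 0 lower, and limma called 10 higher, or 5 without residual replicate 3. The mean of the list was 6.54 to 6.85 on primary, 8.01 to 8.98 on residual and 8.0 to 8.47 on recurrent arrays. Pi16, a marker of a fibroblast subset, read 4.30, 3.68, 3.44 and 3.53 on primary, 7.31, 6.35 and 7.44 on residual and 4.57, 3.86, 3.14 and 4.82 on recurrent arrays, without overlap. Dpt, dermatopontin, read 8.60 to 10.67 on residual and 7.99 to 10.86 on recurrent arrays, which overlapped, against 4.05 to 5.19 on primary arrays. Pcolce, an enhancer of collagen processing, was at 12.62 to 12.73, 12.56 to 12.84 and 12.31 to 12.63 on primary, residual and recurrent arrays, the brightest marker of the list and high at every stage, unlike Dpt and Pi16.

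As list means, macrophage markers overlapped between all stages, and endothelial markers overlapped between primary and residual arrays. The mean of 26 macrophage and monocyte markers was 5.74 to 6.60 on primary, 4.97 to 5.83 on residual and 5.26 to 6.32 on recurrent arrays, with 0 separated higher and 2 lower. These were C1qb and C1qc, subunits of complement C1q, with gaps of 0.08 and 0.04. Limma called 7 markers lower, or 1 without residual replicate 1 or 3. Over all arrays, 25 of the 26 markers had a mean above background. The leukocyte marker Ptprc read 3.90 to 4.84, 3.45 to 5.27 and 3.53 to 4.31 on primary, residual and recurrent arrays. The macrophage marker Adgre1 read 3.93 to 4.64, 4.15 to 4.16 and 3.83 to 5.15 in the same order. Each ran from within background to above it, and they do not stand for the list. The mean of 22 endothelial markers was 3.87 to 4.07, 3.75 to 4.090 and 4.092 to 4.41 on primary, residual and recurrent arrays. Recurrent arrays thus lay just above the others. Pecam1 read 3.48 to 4.06, 3.97 to 4.41 and 3.78 to 5.28 in the same order. Flt1, a VEGF receptor, was the separated member, on the lower side with a gap of 0.09.

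Serping1, the inhibitor of complement C1, was separated widely on the higher side, at 4.65, 6.05, 4.85 and 5.60 on primary, 9.59, 8.20 and 9.01 on residual and 4.12, 5.31, 6.22 and 5.58 on recurrent arrays. Of 32 complement and acute phase genes, 6 were separated higher and 3 lower, and limma called 8 higher, or 5 without residual replicate 3. Among 16 Schwann cell and neuron markers, 3 were separated higher and 0 lower. S100b, a calcium-binding protein of glia, read 10.13, 10.88 and 10.34 on residual against 4.96 to 9.22 on growing arrays, and Tubb3, a neuronal tubulin, 7.51, 8.02 and 7.87 against 3.24 to 6.42. The list mean was 4.39 to 4.53 on primary, 4.97 to 5.21 on residual and 4.44 to 4.70 on recurrent arrays. The median difference of the 16 markers was 0.16. Limma called 4 higher and 0 lower and did not call 12, and 8 of the 16 were above background. The part of such cells in the results was not tested.

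The other lists are given by their counts. Over all genes 4.11% were separated higher and 6.1% lower, and limma called 4.52% higher and 6.89% lower. Here and in the lists above, counts of 1 or 2 members therefore say little of a list. Of 48 axon guidance and neural adhesion genes, 5 were separated higher and 5 lower. Epha3, an ephrin receptor, had a gap of 1.23 on the higher side and Epha2, its relative, 0.79 on the lower side. Of 44 lysosome and autophagy genes, 9 were separated higher and 4 lower, and 17 were higher with arrays scaled to 1 interquartile range. Gabarapl1, of the ATG8 family, had a gap of 0.34. Of 26 genes for mesenchymal transition factors, cadherins and junction proteins, 3 were separated higher and 1 lower. The higher ones were epithelial, Epcam and the claudins Cldn4 and Cldn7, and the lower one was Vim. Like Epcam, Cldn7 was above background on residual replicate 2 alone, at 3.78, 5.95 and 3.93 on residual arrays. Of 33 interferon-stimulated genes and 22 genes of MHC class I, 0 were separated higher and 2 lower in each. For pericytes 1 of 12 markers was separated higher, for granulocytes and mast cells 1 of 18, for lymphocytes 2 of 23 with 1 lower, for adipocytes 1 of 17, for skeletal muscle 0 of 15 with 1 lower, and for erythroid cells 0 of 8.

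The comparison of recurrent with primary cells was not used to choose the genes, although both stages had to lie on 1 side of the residual values. In limma 430 of 23835 genes passed (1.8%), 195 higher (0.818%) and 235 lower (0.986%) in recurrent cells. Among the 980 genes separated higher, 33 were called higher in recurrent cells (3.37%) and 3 lower (0.306%), with a median difference of 0.07. Among the 1455 genes separated lower, 4 were called higher (0.275%) and 47 lower (3.23%), with a median of -0.11. The median over all genes was -0.01. The calls among separated genes numbered 87 in all, and 41, 46, 49 and 43 without primary replicate 1, 2, 3 and 4. The recurrent mean lay above the primary mean for 63% of genes separated higher and 31% of those separated lower, against 48.8% of all genes.

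The genes separated lower that stayed low in part at relapse included Htr1b, a serotonin receptor, at 8.40, 8.64, 8.20 and 8.33 on primary, 3.48, 3.87 and 3.80 on residual and 4.69, 4.49, 6.10 and 6.25 on recurrent arrays, with a recurrent difference of -3.01 ± 0.36 (SE, limma adjusted p = 0.00147). Steap1, a metalloreductase of the cell surface, differed by -1.96 ± 0.16 (SE, limma adjusted p = 0.000154) and had a gap of 1.65. On the higher side, Rtn4r, the Nogo receptor, and Chrdl1 stayed high in part, with recurrent differences of 2.67 ± 0.28 (SE, limma adjusted p = 0.000651) and 2.55 ± 0.34 (SE, limma adjusted p = 0.00332). Among genes with a gap of at least 1, those with the smallest recurrent differences, all within 0.03 on the log2 scale, included Ppp2r2c, Serping1, the protocadherin Pcdhb11 and Rarres1, a retinoic acid responder, on the higher side. On the lower side they included Fosl1, Top2a, Exo1, the kinetochore protein Cenph and the procollagen protease Adamts14. Their limma adjusted p values ran from 0.979 for Top2a to 1.0 for Ppp2r2c. Ppp2r2c and Pcdhb11 lay within background on all growing arrays, so their small differences say nothing of a change between these stages. A p that misses the threshold does not show that the stages were alike.

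**Figure D5:**
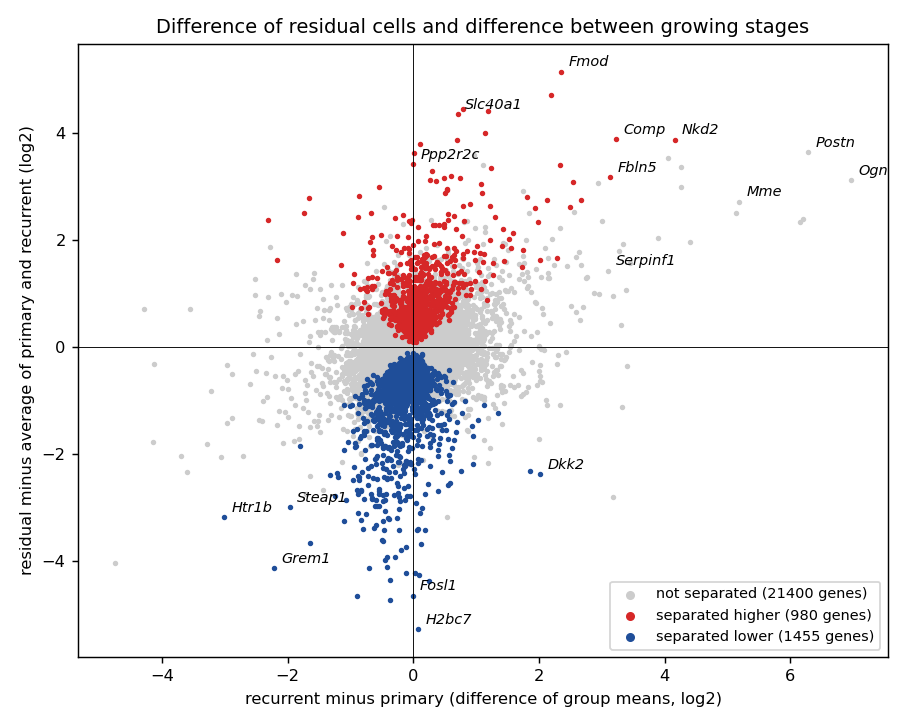
Residual minus growing difference (vertical) against recurrent minus primary difference (horizontal) on the log2 scale, 1 dot per gene, with separated genes coloured. Both axes share the primary and recurrent arrays, so the slope of the cloud is not read, and Nkd2 lies at 3.88 and 4.16 while Fosl1 lies at -4.64 and -0.01.

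At the edge of the rule the values touched. Just inside on the higher side were Retnla, a resistin-like protein, with a gap of 0.000249 and residual values of 2.50, 3.66 and 3.77, and Atp6ap1, an accessory protein of the proton pump, with a gap of 0.000393. Just outside, with a gap of 0, were Abcg3 and Sspo. On the lower side Bud31 and Atxn2l were just inside, with gaps of 1.74e-05 and 0.000168, and Zan and Fshr just outside with tied values.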

How the data were processed

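Each of 11 samples was measured on 1 Affymetrix array from biotin-labelled cRNA of total RNA. The authors deposited log2 signals for 24479 probe sets, 1 per Entrez Gene identifier, made with RMA and R 3.0.2 per the submitters' processing notes, and these were used unchanged. RMA compresses differences between dim signals, and the number of arrays limits the precision. The platform's table named 23281 probe sets and Entrez identifiers 556 more, 642 had no name, and 2 were dropped as the dimmer probe set of a symbol, which left 23835 genes.

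Groups came from sample titles. A model with 3 groups was fitted with limma 3.58.1 in R 4.3.3 (8 residual and 3.46 prior degrees of freedom), with two-sided tests and Benjamini-Hochberg adjustment over all genes. Separated genes carry no p for the contrast that chose them. Members and lists were chosen with earlier results of these data known.

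Genes named were the 12 widest gaps in each direction, up to 4 called members per list with up to 2 of the other direction, the 3 brightest markers of cell types, 5 genes each with the largest and smallest recurrent differences, and the 2 genes nearest either side of the rule. Predicted, unnamed, olfactory and vomeronasal genes were left out, and some genes taken by the rule are not described. Acvr1, Adgre1, Arntl, Bmpr1a, Bmpr2, Btg2, Cldn7, Epcam, H2bc4, Krt5, Krt8, Myc, Pecam1, Pmepa1, Ptprc, Rrm1, Tef, Tgfbr2, Tyms and Vim, and the exceptions Cdc25b, Bub3 and Bora, were named after their values were seen.

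Promoters were RefSeq's on GRCm38.p6, matched by symbol for 17724 genes, of which 2780 had several entries. Lists held 1345 entries, 1256 of them measured. Steps were tested on simulated data. Alternatives were other scalings, a filter on dim genes that kept 13637, other estimates of the spread, the replicate number as a block, stricter thresholds, a shorter promoter window and leaving out each array. Figures used matplotlib 3.10.9 in Python 3.11.15.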

Additional observations from a re-analysis of the deposited data

Results flagged for a closer look

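Within groups of 4 arrays, single arrays stood apart from the other 3 for 17 of 318 groups examined, near the 5% that chance gives, by Dixon's test. Among list means, 1 primary array was high for replication-dependent histones, at 6.48 against 5.77 to 5.85, and for oxidative phosphorylation, at 9.60 against 9.32 to 9.36. One primary array was low for the dormancy list, at 7.11 against 7.23 to 7.24, for MAP kinase and EGF genes, at 7.87 against 8.09 to 8.11, for immediate early genes, at 8.60 against 9.05 to 9.12, and for milk proteins, at 4.43 against 4.47. A single recurrent array was high for cytosolic ribosomal proteins, at 7.64 against 7.12 to 7.19.

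Among genes, a primary array was the high one for H2ac4, at 7.66 against 6.65 to 6.76, for Pbk, at 7.73 against 7.16 to 7.20, for Rbl1, at 6.26 against 5.84 to 5.88, for Nop56, at 8.92 against 8.64 to 8.69, and for C1qb, at 7.41 against 6.50 to 6.61. A primary array was low for Met, at 8.81 against 9.23 to 9.31. A recurrent array was low for Thbs1, at 7.13 against 8.52 to 8.64, and for Fmo1, at 3.74 against 4.36 to 4.44. A recurrent array was high for Igf1r, at 7.68 against 7.09 to 7.15, and for Epha3, at 4.50 against 3.88 to 3.97.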

How the results depend on the processing

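The count of genes called in limma for residual cells against both growing stages was 2720, and 1170 at an adjusted p under 0.01. It was 1879 to 2612 when 1 array was left out, 2077 with the growing arrays pooled as 1 group, and 2331 to 2850 under the scalings tried. The count of separated genes was 2435, and 185 with a gap of at least 1. It was 2559 to 3804 when 1 array was left out, as the rule then asks less, with 3804, 3785 and 3765 without residual replicate 1, 2 and 3. Calls between recurrent and primary cells among separated genes numbered 87, and 26 at an adjusted p under 0.01, 14 among genes with a gap of at least 1, and 41 to 97 when 1 array was left out. The replicate number as a block gave 53 such calls and 1852 calls for residual cells. Samples of the same number did not deviate together, with correlations of -0.08 to 0.02. These values gave no sign of pairing by number, but correlations over all genes cannot exclude a shared animal or batch. The share of promoters with CHR and CCAAT letters among genes separated lower was 8.49%, then 4.51% in the last 150 bases and 39.8% for a gap of at least 1.

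List medians reversed for pericytes (-0.0172 with arrays scaled to 1 interquartile range, -0.0092 when quantile-normalized again), granulocytes and mast cells (-1.71 with the filter on dim genes) and lymphocytes (-0.0089 with the interquartile scaling). Of 835 list medians recomputed, 816 moved by less than the spread between replicates. Of 4370 recomputed values of single genes, 3979 kept direction and side of the threshold, 384 lost the call and 7 gained it. The causes were not tested. Levels near background, where RMA compresses differences, limit both sides. On the higher side the brighter arrays were more often within background. On the lower side the residual values of H2bc7, Nuf2 and Kif23, among others, lay within background, so their differences may be understated.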

Other observations

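Several genes with a gap of at least 1 stood outside all lists and were named after their values had been seen. On the lower side, Terc, the RNA template of telomerase, read 7.32, 7.88, 7.32 and 7.44 on primary, 4.77, 4.69 and 4.26 on residual and 7.74, 7.09, 7.84 and 6.77 on recurrent arrays, without overlap. Hmga2, a chromatin protein of embryonic and tumour cells, read 7.01, 7.14 and 7.04 on residual against 9.07 to 10.06 on growing arrays. Dusp9, a phosphatase of ERK, had a gap of 2.08 and Rgs16, a regulator of G protein signalling, one of 2.42, beside the MAP kinase genes described above. Psat1, an enzyme of serine synthesis, had a gap of 1.60. Apln, the vascular ligand apelin, had a gap of 1.90, and Egln3, a prolyl hydroxylase induced by hypoxia, one of 1.86.

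On the higher side, Fbxw7, the ubiquitin ligase subunit that targets cyclin E and MYC, read 6.22, 6.53, 6.53 and 6.57 on primary, 7.64, 7.61 and 7.64 on residual and 6.08, 6.57, 6.07 and 6.11 on recurrent arrays, again without overlap. Nox4, an oxidase that makes hydrogen peroxide, read 10.63, 10.72 and 10.59 on residual against 7.15 to 9.59 on growing arrays. Car12, a carbonic anhydrase of the cell surface, had a gap of 1.23. Among the 642 probe sets without a name here, 22 were separated higher and 11 lower.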
